A study of Mus musculus with 64 samples.

Results

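The comparison set 4 tumors of older PyMT mice against 4 tumors of 20-week PyMT mice. The older tumors were numbers 3 and 6 of mouse G164 and numbers 6 and 9 of mouse G184, and the younger tumors were numbers 6 and 8 of mouse G144 and numbers 1 and 6 of mouse G174. These are all 8 tumors of the series, chosen by the identity of the mouse and its age and by no expression value. By the study's histology table, which lists the mice and not each sequenced tumor, G164 was 23.9 weeks old, G184 was 22.9 weeks old and both younger mice were 20 weeks old. G164 was Abi1 fl/wt and Cre-positive, G184 was fl/fl and Cre-negative, G144 was fl/wt and Cre-negative, and G174 was fl/fl and Cre-positive.

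PyMT mice carry the middle T antigen of polyomavirus, which drives the mammary epithelium into multifocal tumors that progress with age from hyperplasia to carcinoma. Such tumors hold, beside the malignant epithelium, macrophages, lymphocytes, fibroblasts, vessels and remnants of the mammary fat pad, so RNA from a whole tumor is a mixture. The MMTV-driven Cre recombinase removes the floxed part of Abi1 chiefly in mammary epithelium, and Abi1 encodes a subunit of the WAVE complex, which starts actin branching behind Rac. All mice were female and carried PyMT and at least 1 floxed Abi1 allele. The PyMT and the floxed lines were C57BL6, while the Cre line was of mixed strain.

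The older tumors had higher levels of genes of lymphocytes, of interferon response, of antigen presentation and of macrophages, and lower levels of genes of mitosis and DNA replication. All 22 T and NK cell genes and 16 of 17 interferon-inducible GTPase genes were higher in the older tumors, and 19 of 24 mitosis genes and 20 of 24 DNA replication genes were lower, by a test that called 13.1% of all genes higher and 12% lower and whose p-values reflect spread within mice alone. The mitosis count depended on single tumors, at 1 without G164 tumor 6 and 0 without both tumors that held muscle genes. The replication count was 13 without G164 tumor 6 and 6 without both tumors that held muscle genes. Between the Cre-positive mice alone 0 mitosis and 1 replication genes were called lower (1.79% of all genes), and between the Cre-negative mice 20 and 20 (6.4%). Of 31 type I interferon response genes 3 and 30 were called higher in these pairs (5.31% and 6.17% of all genes). By a test over the mice themselves, 38 genes passed, among them Ptprc, Dock2 and Cd36 (higher) and Ahsg, Krt23 and Egln3 (lower). No member of the T and NK cell, GTPase, antigen presentation, macrophage, mitosis or replication lists was among the 38. The genes with the widest gap between the age classes were mostly processed pseudogenes.

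Each age class held 1 Cre-positive and 1 Cre-negative mouse, and also 1 fl/wt and 1 fl/fl mouse. Neither Cre nor the floxed genotype alone separates the classes, but the difference between older and younger mice equals, halved and with the sign turned, the Abi1 effect in fl/fl mice minus that in fl/wt mice. Age, this interaction, the litter and strain background of a mouse, and the 4 individuals themselves cannot be told apart. With 2 mice against 2, an exact permutation test could not go below p = 0.333, and the model fits below borrow strength across genes. The tumors of 1 mouse are not separate animals.

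Libraries held 50346075 to 69264893 reverse-strand gene counts. Reads in no gene made up 32.2% to 34.9% of the older libraries and 28.3% to 32.3% of the younger, and ambiguous reads 1.48% to 1.58% and 1.65% to 2.09%, and the part of these differences in the results was not tested. Skeletal muscle genes stood out in 2 tumors, with 418 summed CPM (counts scaled by library size, TMM-adjusted) in G164 tumor 3 and 339 in G144 tumor 8 against 14.0 to 17.7 in the other 6 tumors. No muscle gene passed either test, and most list counts below are also given without these tumors. Luminal keratin genes, the defining markers of the tumor epithelium, were abundant in every tumor: Krt8 ranged from 615 to 934 CPM and Krt18 from 690 to 937 CPM, with the age classes overlapping.

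The deleted gene Abi1 was lowest in the fl/fl Cre-positive mouse. Its level was 63.1 and 66.7 CPM in G164 tumors 3 and 6 and 114 and 122 CPM in G184 tumors 6 and 9. In the younger mice it was 111 and 130 CPM in G144 tumors 6 and 8, and 8.93 and 6.47 CPM in G174 tumors 1 and 6. The homozygous knockout mouse was a younger one, so Abi1 was higher in the older tumors by 1.52 ± 0.12 on the log2 scale (SE, adjusted p = 0.000889 over tumors), with a difference of 3.08 in the Cre-positive pair and of -0.03 in the Cre-negative pair. This difference between the pairs passed the test (adjusted p = 0.00495).

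Among the genes as a whole, age class was the largest axis. The first principal component of log2 CPM held 44.0% of the variance and placed the older tumors from 40.1 to 63.4 and the younger from -79.0 to -23.4. The second, with 17.5%, placed the G164 tumors above zero, at 52.5 and 25.4, and the G184 tumors below it, at -36.6 and -57.5. The G144 tumors were at 5.68 and 33.8 and the G174 tumors at -24.8 and 1.43. All fl/wt tumors thus lay above all fl/fl tumors on this component. Divided into sums of squares over 22187 genes, the age contrast took 41.4% of the spread between tumors, Cre 12.4%, the floxed genotype 15.6%, and the 4 differences between tumors of a mouse 30.6% together. Per degree of freedom, age was the largest part in 12928 genes (58.3%). Tested over the mice in the same way as age below, Cre gave 0 genes (191 at an unadjusted p under 0.05, 25 by DESeq2). The floxed genotype gave 0 genes (354 at an unadjusted p under 0.05, 78 by DESeq2). In both of these fits the age contrast, the largest part, counted as residual spread between mice. The residual of the age test held only the smaller parts of Cre and the floxed genotype. The tests are thus unequal, and the counts of 0 do not show that Cre or the floxed genotype had no effect.

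**Figure D1:**
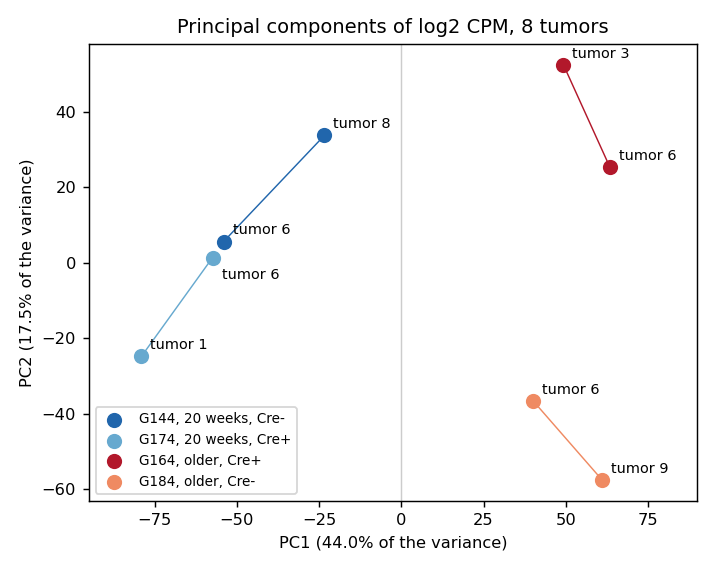
First and second principal components of log2 CPM (prior count 2) over 22187 genes; each point is 1 tumor and a line joins the 2 tumors of a mouse. The older tumors lie from 40.1 to 63.4 on PC1 and the younger from -79.0 to -23.4. On PC2 the tumors of the fl/wt mice G164 and G144 lie above those of the fl/fl mice G184 and G174.

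Counts were summed per mouse and the 2 older mice compared with the 2 younger by the quasi-likelihood test of edgeR. Of 23281 genes, 38 passed an adjusted p of 0.05 (0.163%), with 26 higher (0.112%) and 12 lower (0.0515%) in older mice, and 6722 genes had an unadjusted p under 0.05. All 38 had the same sign in the Cre-positive and the Cre-negative pair, and 37 passed the test over tumors in the same direction. Between the 4 older and the 4 younger tumors 37 of them did not overlap, beside 26.5% of the 22187 genes tested over tumors. The 38 were picked from these same tumors by a test that favours genes on which the mice of a class agree. These counts are therefore no separate support. The number of calls turned on the threshold: 27 of the 38 had an adjusted p of 0.0498, 436 genes lay under 0.06 and 3321 under 0.1. Leaving out G144 tumor 8, which held muscle genes, gave 1509 calls, leaving out G164 tumor 3 gave 618, and leaving out both gave 2270 that included all 38, whereas leaving out any 1 of the other 6 tumors gave 4 (without G144 tumor 6) to 10. With a whole mouse left out there were 0 calls without G144 or without G174, 146 without G164 and 158 without G184. DESeq2 called 4331 genes.

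Several of the genes highest in the older tumors by this test are expressed in leukocytes. Ptprc encodes CD45, the phosphatase found on all nucleated blood cells, and its level lay between 142 and 169 CPM in the older tumors, with G164 tumor 3 the lowest and G184 tumor 9 the highest. Older tumors are given here and below in the order G164 tumor 3, G164 tumor 6, G184 tumor 6 and G184 tumor 9, and younger tumors in the order G144 tumor 6, G144 tumor 8, G174 tumor 1 and G174 tumor 6. In the younger tumors Ptprc was at 51.6, 60.5, 48.3 and 48.9 CPM, and the log2 difference was 1.58 ± 0.08 over tumors. Every older tumor exceeded every younger one by more than the spread within either class. Dock2, a Rac activator of lymphocytes and macrophages, was at 46.9, 61.4, 60.5 and 63.2 CPM against 21.1, 23.1, 20.8 and 17.7 CPM. Its log2 differences were 1.49 in the Cre-positive pair and 1.48 in the Cre-negative pair. Wdfy4, needed for cross-presentation by dendritic cells, was at 22.8, 37.6, 27.6 and 31.6 CPM against 10.6, 11.4, 10.3 and 9.36 CPM.

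Other genes of the 10 with the largest rise act outside leukocytes or in several cell types. Cd36, a fatty acid receptor of adipocytes, endothelium and macrophages, was at 13.5, 29.7, 24.7 and 21.9 CPM in the older tumors against 6.55, 7.24, 6.66 and 4.59 CPM in the younger. Ifi27l2a, induced by interferon, was at 41.8, 32.1, 30.2 and 44.2 CPM against 6.41, 11, 13 and 8.67 CPM. Ifi213, of the interferon-inducible PYHIN family, was at 20.8, 16.8, 12.2 and 19.7 CPM against 3.21, 3.48, 2.19 and 4.61 CPM, and lies on chromosome 1 at 173566283 to 173599274 beside Ifi214 (173519717 to 173535957, GRCm38), which passed too. These neighbours are near copies of each other, so how their reads were divided is uncertain. Slfn4, a Schlafen gene of myeloid cells, Col23a1, which encodes a membrane collagen, Adamtsl1, which encodes a secreted matrix protein, and Mtmr9, which encodes a catalytically inactive myotubularin relative, completed the 10, with log2 differences over mice of 2.01, 1.97, 1.66 and 1.76. The largest difference of the 10 was that of Ifi213, at 2.34.

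On the lower side, 4 protein-coding genes met the same conditions. Ahsg encodes fetuin-A, a plasma protein that binds calcium phosphate, and was at 0.515, 0.225, 0.451 and 0.171 CPM in the older tumors against 21.9, 4.77, 13.3 and 7.92 CPM in the younger. The log2 difference over mice was -5.19, with an adjusted p of 0.0243. Its neighbour and paralog Fetub also passed, at 1.35, 1.20, 1.68 and 0.824 CPM against 10.5, 5.04, 10.5 and 6.52 CPM; Ahsg lies on chromosome 16 at 22891277 to 22899449 and Fetub at 22918334 to 22939778. Egln3 encodes the prolyl hydroxylase PHD3, itself induced by hypoxia, and was at 64.7, 87.1, 74.6 and 68.9 CPM against 191, 152, 145 and 178 CPM. Krt23, a type I keratin, was at 48.8, 29.9, 45.8 and 23.9 CPM against 86.4, 89.5, 93.6 and 90.3 CPM, and Limch1, which activates non-muscle myosin, at 38.2, 29.0, 41.6 and 16.7 CPM against 82.1, 78.1, 104 and 51.4 CPM.

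The other 6 of the 10 largest falls passed only the test over tumors, with adjusted p from 0.0579 to 0.0986 over mice. Bpifb1 and Bpifb5, secreted proteins of the BPI fold, were at 3.96, 0.898, 1.13 and 0.870 CPM and at 14.9, 6.51, 3.03 and 1.03 CPM in the older tumors. In the younger they were at 37, 7.03, 55.5 and 60.9 CPM and at 123, 25.3, 83.4 and 255 CPM. Tenm3, a teneurin adhesion receptor, was at 9.91, 5.29, 4.37 and 2.61 CPM against 53.8, 39.7, 121 and 46.7 CPM. Tph1, the rate-limiting enzyme of peripheral serotonin synthesis, was at 1.79, 2.82, 2.57 and 0.280 CPM against 5.42, 14.5, 37.7 and 20.1 CPM. Comp, a cartilage matrix protein, and Gm7298 had log2 differences over tumors of -3.23 and -4.27. In each of these 6 genes the highest older tumor stayed under the lowest younger one.

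**Figure D2:**
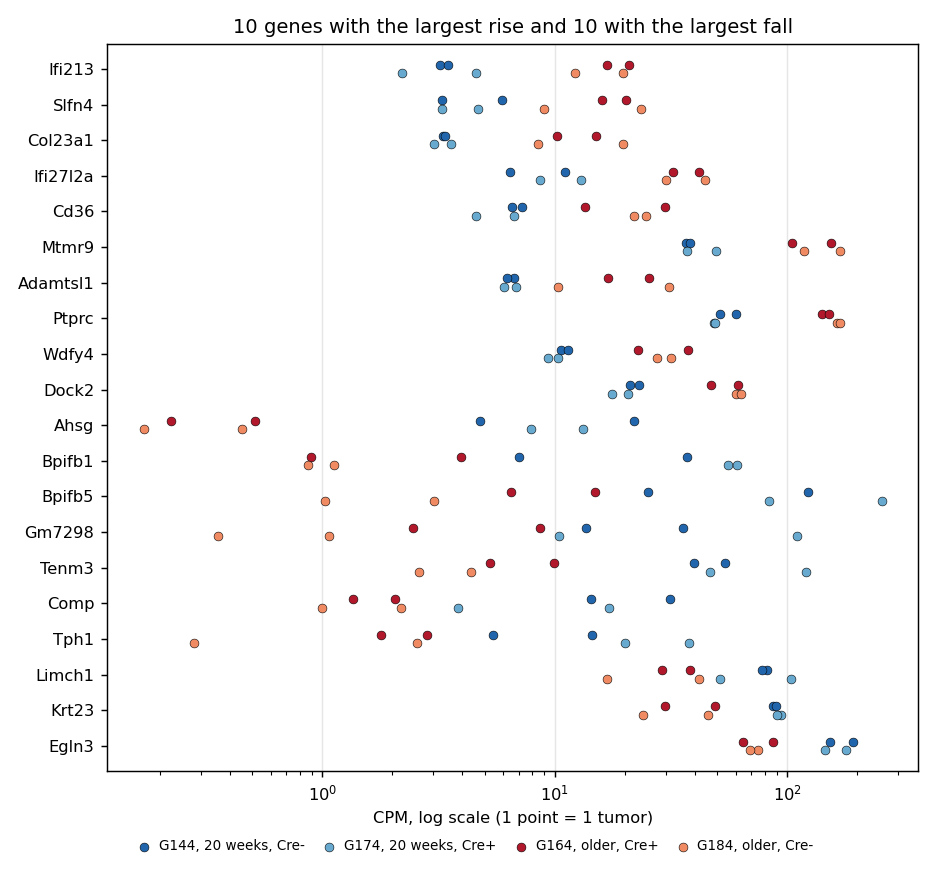
CPM on a log axis of the 10 protein-coding genes with the largest rise and the 10 with the largest fall in older mice; each point is 1 tumor, blue for the 20-week mice and red or orange for the older mice. The classes do not overlap in any of the 20 genes, which was a condition for naming them.

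The widest separations lay mostly outside protein-coding genes. In 13 genes the lowest tumor of one class was at least 8 times the highest of the other (after adding 0.05 CPM), and 8 of the 13 were processed pseudogenes (61.5%), which made up 5.64% of the 22187 genes tested. Of the 13, 2 were protein-coding, Ahsg and Gm12666. These 13 were picked for their gap after their values were seen, and the gap is a description. Gm8730 was at 114, 135, 113 and 118 CPM in the older tumors and at 4.05, 3.39, 3.87 and 4.03 CPM in the younger, a log2 difference of 4.97 ± 0.10 over tumors. Rps3a3 went the other way, at 6.42, 7.47, 6.35 and 8.56 CPM against 139, 121, 103 and 130 CPM. Gm9625 was at 30.7, 36.3, 31.4 and 35.3 CPM against 2.88, 2.87, 2.25 and 3.04 CPM. Rpl34-ps1 was at 0.762, 0.930, 0.677 and 0.668 CPM against 15.4, 17.6, 10.8 and 16.7 CPM. Within a class these pseudogenes varied little, and the gap was alike in both pairs: for Gm8730 the log2 difference was 4.98 in the Cre-positive and 4.95 in the Cre-negative pair.

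Hist1h2al, annotated as a processed pseudogene of a histone H2A gene, was near zero in the older tumors (0.0282 to 0.128 CPM) and at 17.6 to 37.3 CPM in the younger. Rprl3 and Rprl2, copies of the RNA subunit of RNase P, were at 63.0 CPM or more and at 3.34 to 4.57 CPM in the older tumors and at 0.359 to 1.43 CPM and 0 to 0.105 CPM in the younger. Among the 38 genes that passed over mice, 9 were processed pseudogenes (23.7%, against 6.58% of the genes tested). Gm8730 lies on chromosome 8 (102864845 to 102865798), and Rps3a3 (108670603 to 108671397), Gm9625 (67810246 to 67811200), Gm48496 (16431525 to 16431780) and Hist1h2al (51202727 to 51203065) lie on chromosome 13. Processed pseudogenes share most of their sequence with their parent genes, so reads may be assigned to the wrong copy. No genotypes of the mice beyond Abi1 and the transgenes were used, so inherited differences at these loci and age cannot be told apart.

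**Figure D3:**
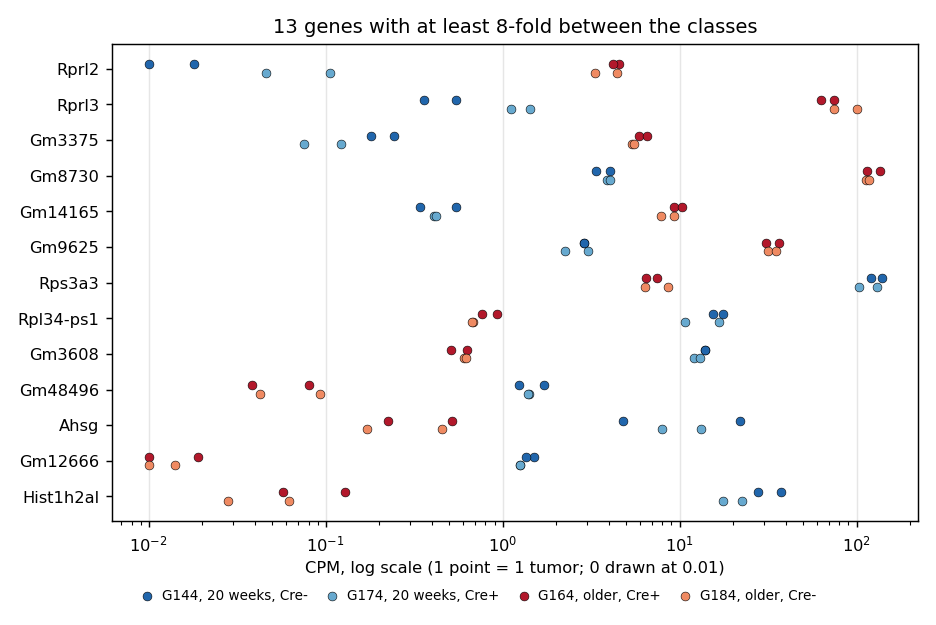
CPM on a log axis of the 13 genes whose lowest tumor in one age class is at least 8 times the highest in the other; each point is 1 tumor and a value of 0 is drawn at 0.01. In Gm8730 the older tumors lie at 113 to 135 CPM and the younger at 3.39 to 4.05 CPM, and in Rps3a3 the order is reversed.

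The second test used the 8 tumors, with the spread taken between tumors of a mouse. Of 22187 genes, 5579 passed (25.1%), 2907 higher (13.1%) and 2672 lower (12%) in the older tumors, and 26.5% of all genes did not overlap between the classes. Its p-values do not measure how much mice of 1 age differ, so a gene called higher or lower here differed between these 4 mice. With a fold change of at least 1.5 required, 932 passed, and leaving out 1 tumor gave 2079 to 4817 genes, with the lowest counts without G164 tumor 6 (2079), G144 tumor 6 (2456), G184 tumor 9 (2637) and G164 tumor 3 (2865). Leaving out both tumors with muscle genes gave 1450, of which 1372 were among the 5579.

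Because the pairs share no tumor, the age difference could be taken separately among Cre-positive mice (G164 minus G174) and among Cre-negative mice (G184 minus G144). The Cre-positive pair gave 1576 genes (7.1%), 1178 higher and 398 lower, and the Cre-negative pair 2787 (12.6%), 1368 higher and 1419 lower. Both pairs called 782 genes, which is 49.6% of the Cre-positive and 28.1% of the Cre-negative calls, and in 750 of these the direction was the same (552 higher, 198 lower). Over all 22187 genes 71.1% had the same sign in both pairs, and Pearson's r of the log2 differences was 0.37 across genes, which are not independent replicates. The difference between the pairs passed the test in 58 genes.

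**Figure D4:**
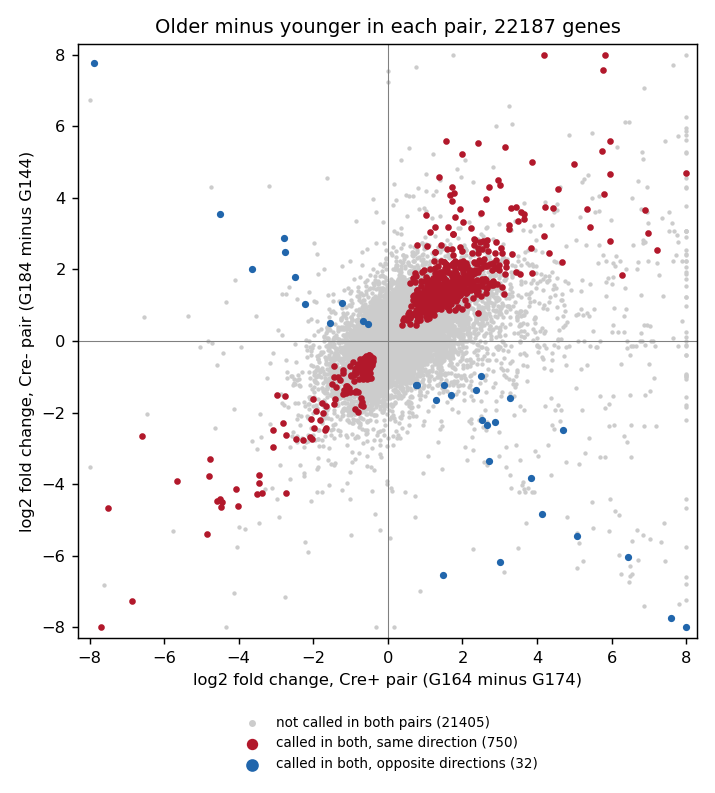
Log2 difference between older and younger tumors in the Cre-positive pair (x axis) and the Cre-negative pair (y axis) for 22187 genes, with values beyond 8 drawn at the edge (62 genes). Of the 782 genes called in both pairs, 750 lie in the quadrants of equal sign (red) and 32 in the others (blue).

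T lymphocytes and NK cells were represented by 22 genes, and all 22 were higher in the older tumors, where 13.1% of all genes were. Their median log2 difference was 1.71, beside 0.01 for all genes tested. In 20 of the 22 every older tumor was above every younger one, as in 13.2% of all genes. Summed over the list, the level was 55.6, 60.9, 72.2 and 65.6 CPM in the older tumors and 26.1, 26.2, 15.3 and 16.7 CPM in the younger. In bulk samples, fewer cells of a type and less RNA per cell cannot be told apart. Cd3e, a subunit of the T cell receptor complex, was at 2.65, 3.08, 2.98 and 2.60 CPM against 0.853, 0.861, 0.564 and 0.422 CPM. Cd8a, the co-receptor of cytotoxic T cells, was at 6.00, 6.19, 4.60 and 4.12 CPM against 2.44, 1.90, 1.51 and 1.29 CPM. Foxp3, which defines regulatory T cells, was at 0.210, 0.385, 0.762 and 0.420 CPM against 0.0457, 0.125, 0.0457 and 0.0301 CPM. Klrk1, the activating receptor NKG2D, had a log2 difference of 2.55 ± 0.17, with 2.52 and 2.57 in the pairs. Cd3e, Cd8a and other familiar members named in this and the later lists beside those with the largest differences were chosen after their values were seen. None of the 22 passed over mice, where Cd5, a T cell surface receptor, had the adjusted p of 0.0579. Without the tumors that held muscle genes, 15 passed.

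Receptors and ligands that restrain T cells moved the same way, with 11 of 11 genes higher (13.1% of all genes). In 11 of 11 every older tumor was above every younger one (13.2% of all genes). Pdcd1, which encodes PD-1, was at 1.85, 1.60, 2.02 and 2.24 CPM in the older tumors against 0.701, 0.878, 0.457 and 0.422 CPM. Its ligand Cd274, which encodes PD-L1, was at 8.33, 6.54, 33.6 and 27.4 CPM against 2.62, 2.69, 4.27 and 3.01 CPM. The G184 tumors stood above the G164 tumors in Cd274, and the pairs differed by the test, with log2 differences of 1.03 in the Cre-positive and 3.52 in the Cre-negative pair (adjusted p of the difference 0.0403). Ido1, a tryptophan-degrading enzyme, was at 22.4, 12.6, 11.8 and 7.80 CPM against 5.35, 4.0, 0.853 and 1.26 CPM. Without the tumors that held muscle genes, 6 of the 11 passed.

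Of 22 B and plasma cell genes, 17 were higher and none lower, with a median log2 difference of 3.11, of 4.97 in the Cre-positive and of 1.10 in the Cre-negative pair. Summed over the list, G164 was at 1814 and 1879 CPM and G184 at 1193 and 803 CPM, the latter below the 1217 to 1555 CPM of the younger tumors. Ighm, the heavy chain of IgM, was at 277, 159, 28.2 and 26.1 CPM in the older tumors against 7.01, 8.01, 2.21 and 3.45 CPM. Both older mice exceeded the younger ones, with G164 far above G184, and the pairs differed (adjusted p = 0.0127). Igkc, the kappa light chain, was at 122, 72.0, 4.02 and 2.24 CPM against 1.81, 1.52, 0.457 and 4.86 CPM, so G174 tumor 6 lay above both tumors of G184. The count of 17 was 5 without G144 tumor 6, 8 without G144 tumor 8, and 11 without either tumor of G184. Without both tumors with muscle genes it was 12.

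Macrophage and dendritic cell genes were higher in 21 of 26 and lower in none, with a median log2 difference of 0.82. Csf1r, the receptor for the macrophage growth factor CSF1, was at 102, 113, 104 and 156 CPM against 54.3, 69.6, 51.6 and 55.1 CPM. Adgre1, which encodes F4/80, was at 51.6, 47.2, 49.3 and 68.1 CPM against 24.6, 29.4, 27.4 and 27.9 CPM. Larger log2 differences were those of dendritic cell genes: Clec9a, a receptor for dead cells on cross-presenting dendritic cells, was at 1.83, 1.84, 4.43 and 4.57 CPM against 0.548, 0.627, 0.122 and 0.0753 CPM (3.56 ± 0.19). Cd68, Mrc1, Cd163, Lyz2 and Trem2 did not pass, with log2 differences from 0.23 to 0.65. Without the tumors with muscle genes, 17 of the 26 passed. Of 13 neutrophil and mast cell genes 5 were higher, among them S100a8, at 9.05, 40.5, 6.52 and 18.2 CPM against 3.31, 3.85, 4.22 and 3.30 CPM. That count was 1 without G144 tumor 6 or G174 tumor 1, 2 without G144 tumor 8, G164 tumor 6 or G174 tumor 6, and 4 without both tumors with muscle genes.

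Interferon response genes were higher in the older tumors, more so in G184. Type I and type III interferons act on genes that carry the interferon-stimulated response element, while interferon-gamma induces the guanylate-binding and immunity-related GTPases, which attack intracellular pathogens. Of 31 type I response genes 29 were higher, 1 (Ifi44l) was lower and 1 (Mx1, log2 difference 1.12) did not pass. Of 17 GTPases 16 were higher, and Gbp2b, with a log2 difference of -0.24, did not pass. Gbp5 was at 11.5, 7.41, 104 and 85.4 CPM in the older tumors against 1.57, 2.53, 1.40 and 2.14 CPM in the younger. Gbp4 was at 23.4, 13.6, 239 and 177 CPM against 4.01, 4.57, 7.53 and 4.97 CPM. Both older mice stood above the younger, and the pairs differed in Gbp4 (log2 1.56 and 5.6, adjusted p of the difference 0.0232). Irf7, a factor that amplifies the interferon response, was at 354, 292, 426 and 528 CPM against 81.8, 124, 189 and 130 CPM.

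The GTPase list had a median log2 difference of 1.02 in the Cre-positive and 4.08 in the Cre-negative pair, and 6 and 16 of its 17 members were called higher in them (5.31% and 6.17% of all genes). For the type I list the medians were 0.54 and 2.02, with 3 and 30 members called higher. Ifng, the gene of interferon-gamma, was at 0.0762, 0.0160, 0.536 and 0.451 CPM against 0.0457, 0.0179, 0 and 0 CPM, so G164 overlapped the younger tumors. Ifi44l was at 27.2 and 19.6 CPM in G164, 0.0847 and 0.0311 CPM in G184, and 4.89 to 10.1 CPM in the younger tumors. Its pairs differed (log2 1.47 and -6.53, adjusted p of the difference 0.00474), and over mice its log2 difference was 0.71, of the opposite sign to the -2.53 over tumors. Over mice, Ifi27l2a was the 1 gene of both lists that passed. Without the tumors with muscle genes, 19 type I genes and 16 GTPases were higher. Members of the guanylate-binding family are close copies in a cluster, so the division of reads between them is uncertain.

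Promoters are shown because members of both lists were higher together and a motif recurred among them. RefSeq windows from 250 bases before to 50 after a gene's start (GRCm38.p6) were searched on both strands for GAAANNGAAA, a short form of the interferon-stimulated response element. It occurred in 10 of 10 GTPase genes and 11 of 21 type I genes with a window, and in 3.99% of all 27025 genes with one. The windows of Gbp5 (chr3:142496684-142496983, + strand) and Oas3 (chr5:120777610-120777909, - strand), which encodes an antiviral oligoadenylate synthetase, follow with the motif or its reverse complement in capitals, read 5′ to 3′ on the strand of the gene.
Gbp5: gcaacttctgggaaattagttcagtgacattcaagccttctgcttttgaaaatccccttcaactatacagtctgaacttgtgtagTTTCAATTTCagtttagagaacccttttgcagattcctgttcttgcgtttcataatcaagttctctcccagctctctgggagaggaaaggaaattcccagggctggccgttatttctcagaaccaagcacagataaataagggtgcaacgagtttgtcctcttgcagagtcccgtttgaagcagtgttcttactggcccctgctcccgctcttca
Oas3: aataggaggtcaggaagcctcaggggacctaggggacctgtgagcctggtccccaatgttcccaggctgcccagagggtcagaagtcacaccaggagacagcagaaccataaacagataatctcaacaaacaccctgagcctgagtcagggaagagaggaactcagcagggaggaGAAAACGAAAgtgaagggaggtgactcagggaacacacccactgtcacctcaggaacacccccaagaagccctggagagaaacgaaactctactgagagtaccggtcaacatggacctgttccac
Oas3 was at 38.6, 23.5, 56.5 and 87.6 CPM in the older tumors against 5.06, 6.15, 21.5 and 13.4 CPM. A match is a description of these letters and does not show a bound factor.

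Antigen presentation genes were higher in 20 of 22, with H2-K1 and H2-D1 (log2 differences 0.44 and 0.47) not passing. Cd74, the invariant chain that accompanies class II molecules, was at 569, 579, 659 and 823 CPM against 227, 225, 183 and 204 CPM. H2-Aa, a class II chain, was at 403, 374, 416 and 523 CPM against 152, 145, 110 and 123 CPM, with differences of 1.74 and 1.66 in the pairs. The list as a whole was less even, with a median of 0.43 in the Cre-positive and 1.52 in the Cre-negative pair. In these pairs 8 and 20 of the 22 were called higher (5.31% and 6.17% of all genes). Nlrc5, the activator of class I genes, was at 113, 84.4, 244 and 257 CPM against 41.0, 41.3, 98.8 and 57.1 CPM and overlapped. Of 27 chemokines 16 were higher and none lower. Cxcl9, a ligand of CXCR3 on T cells, was at 10.2, 4.99, 129 and 69.5 CPM against 2.12, 3.17, 1.66 and 2.18 CPM, and Ccl5 at 7.76, 5.73, 7.72 and 6.51 CPM against 2.38, 2.56, 2.25 and 2.20 CPM. Cxcl13, which attracts B cells to follicles, was at 3.98, 4.72, 3.23 and 2.52 CPM against 0.396, 0.430, 0.107 and 0.0301 CPM. Of 20 complement genes 14 were higher, among them the inhibitor gene Serping1, which passed over mice (log2 1.32), and C1qa, at 115, 109, 114 and 156 CPM against 61.2, 84.1, 71.5 and 77.4 CPM. Without the tumors with muscle genes the counts were 12 of 22, 8 of 27 and 5 of 20. The complement count of 14 was 9 without G144 tumor 6 or G164 tumor 6.

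Genes of cell division were lower in the older tumors. Of 24 mitosis genes 19 were lower and none higher, where 12% of all genes were lower, with a median log2 difference of -0.77, and of 24 DNA replication genes 20 were lower, with a median of -0.65. Top2a, the topoisomerase that untangles chromosomes before mitosis, was at 240, 186, 222 and 117 CPM against 438, 424, 292 and 397 CPM. Cdc45, part of the replicative helicase, was at 11.6, 10.2, 9.34 and 6.33 CPM against 19.7, 23, 16.6 and 19.7 CPM. Mcm5, another helicase subunit, was at 49.3, 49.7, 44.0 and 34.7 CPM against 117, 93.4, 53.8 and 69.2 CPM. Mki67, which encodes Ki-67, did not pass, at 344, 332, 346 and 155 CPM against 445, 642, 292 and 336 CPM. Summed over the mitosis list the older tumors were at 1317, 1229, 1246 and 675 CPM and the younger at 2034, 2453, 1320 and 1751 CPM, so the classes were nearly adjacent between G164 tumor 3 and G174 tumor 1.

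The fall was called mainly in the Cre-negative pair, with 20 of 24 mitosis genes lower there (6.4% of all genes) and 0 in the Cre-positive pair (1.79% of all genes), and medians of -1.26 and -0.28. For the 24 replication genes, 20 were lower in the Cre-negative and 1 in the Cre-positive pair, with medians of -0.95 and -0.27. The difference between the pairs passed its test in none of the mitosis and replication genes. Counts were unstable: the 19 mitosis genes were 1 without G164 tumor 6, 4 without G164 tumor 3, 8 and 9 without G144 tumors 8 and 6, 11 without G174 tumor 6 and 12 without G184 tumor 9, and the 20 replication genes were 13 without G164 tumor 6. With both tumors that held muscle genes left out, 0 mitosis and 6 replication genes passed, while the medians were -0.73 and -0.61. None of these genes passed over mice. Of the regulators of the cycle, Cdkn1c, which encodes the CDK inhibitor p57, was at 3.68, 4.17, 3.36 and 2.55 CPM against 17.0, 9.54, 19.4 and 13.2 CPM, Ccnd2 was higher (log2 1.05), and Ccnd1 did not pass (0.03). Cdkn2a, whose products mark senescent cells, was at 2.50, 2.07, 3.30 and 1.31 CPM against 2.19, 7.33, 0.503 and 8.28 CPM and did not pass. Of 18 genes in the list of secreted factors linked to senescence 6 were higher, among them Mmp3 and Il1b. Vegfa and Lmnb1 were lower, and Lmnb1 encodes a nuclear lamin and not a secreted factor. Without both tumors with muscle genes 3 of the list were higher and 1 lower. Of 14 p53 targets 3 were lower, a count that was 0 without G144 tumor 8, G164 tumor 6 or G184 tumor 9, 1 or 2 without any other tumor, and 0 without both tumors with muscle genes.

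The promoter of Top2a (chr11:99024140-99024439, - strand) is shown for TTTGAA, the core of the cell cycle homology region, which was found on either strand in 14 of 19 mitosis genes and 2 of 19 replication genes with a window, and in 20.2% of all genes.
Top2a: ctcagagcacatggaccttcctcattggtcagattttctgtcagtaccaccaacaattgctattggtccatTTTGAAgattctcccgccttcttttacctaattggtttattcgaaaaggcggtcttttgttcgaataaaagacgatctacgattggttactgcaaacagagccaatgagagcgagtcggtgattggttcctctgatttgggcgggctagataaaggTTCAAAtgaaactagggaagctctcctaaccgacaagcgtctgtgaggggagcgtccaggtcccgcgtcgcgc

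Genes of growth and of energy metabolism also leaned lower. Of 24 cytosolic ribosomal protein genes 15 were lower and none higher (median log2 difference -0.43). Rplp0, of the ribosomal stalk, was at 786, 921, 745 and 835 CPM against 1552, 1432, 1205 and 1480 CPM. Of 24 nuclear genes of the respiratory chain 16 were lower (median -0.27), such as Atp5o, a subunit of the ATP synthase, at 51.4, 46.2, 44.1 and 43.2 CPM against 67.5, 67.4, 70.7 and 69.3 CPM. Both lists had only negative values, yet the differences were small and the counts varied. The ribosomal count of 15 was 3 without either tumor of G164, 4 without G184 tumor 9, 5 without G144 tumor 6 and 9 without G184 tumor 6. The respiratory count of 16 was 4 and 5 without G164 tumors 6 and 3, 5 and 10 without G184 tumors 9 and 6, and 8 without G144 tumor 6. Without both tumors with muscle genes they were 2 and 1. Of 20 hypoxia and glycolysis genes 8 were lower and none higher, among them Egln3 and Car9, a carbonic anhydrase induced by hypoxia, at 23.9, 21.3, 30.1 and 18.7 CPM against 56.8, 40.9, 54.7 and 68.7 CPM. That count was 5 without G144 tumor 6 or G184 tumor 9, and 4 without the tumors with muscle genes.

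The epithelium showed few differences shared by a whole list. The counts of higher genes in the luminal, basal and milk lists were near the share of all genes (13.1%). The count of lower luminal genes was near its share too (12%). Of 17 luminal genes Gata3, Foxa1 and Kit were higher and Epcam and Areg lower. Without both tumors with muscle genes 1 was higher and 1 lower. Kit, a receptor of luminal progenitors, was at 655, 616, 673 and 962 CPM against 264, 356, 286 and 379 CPM. Epcam, a marker of epithelial cells, was at 918, 861, 906 and 933 CPM against 1191, 1171, 1318 and 1168 CPM. Areg, the estrogen-induced growth factor amphiregulin, was at 4.23, 4.60, 0.931 and 0.575 CPM against 8.11, 16.4, 9.45 and 16.8 CPM. Of 14 basal genes Trp63 and Mylk were higher over tumors, with a median log2 difference of 1.00 for the list (1.41 and 0.65 in the pairs). That count was 6 without G174 tumor 6 or G184 tumor 6 and 0 without any other tumor or without both tumors with muscle genes. Krt14, a keratin of basal cells, passed over mice (log2 1.65) and not over tumors (1.66 ± 0.62, adjusted p = 0.0913), with 5.01 and 41.7 CPM in the tumors of G174 and 40.9 CPM in G184 tumor 6. Of 17 milk genes Spp1, Lalba and Lpo were higher (1 without both tumors with muscle genes). Csn2, the casein gene, was at 75.4, 34.7, 4.59 and 0.249 CPM against 1.78, 4.36, 28.8 and 4.76 CPM and did not pass.

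Squamous keratinization genes were higher in 8 of 15, with the highest values in G164. Krt1, a keratin of stratified skin, was at 67.3, 22.2, 0.155 and 1.07 CPM in the older tumors against 0.0762, 1.54, 0.0305 and 0.0602 CPM. In the Cre-positive pair 8 of the 15 were called and in the Cre-negative pair 0 (medians 4.16 and 0.47), though Krt16 passed over all tumors and not in the Cre-positive pair (adjusted p 0.0372 and 0.103), and in none of the 15 did the difference between the pairs pass its test. The count of 8 was 1 without G184 tumor 9, 3 without G144 tumor 6 or G174 tumor 1, 5 without G164 tumor 6, and 3 without the tumors with muscle genes.

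Stromal and fat cell genes were higher in part. Of 20 adipocyte genes 13 were higher and Cidea lower (median 1.55), with Pparg, the master regulator of fat cells, at 5.22, 5.18, 3.53 and 3.96 CPM against 1.75, 2.38, 1.51 and 1.51 CPM. Adipoq, the hormone adiponectin, was at 4.10, 12.8, 6.12 and 3.31 CPM against 2.41, 2.96, 1.43 and 0.452 CPM. That count was 5 without G144 tumor 6 or G164 tumor 6, 6 without G184 tumor 6, 7 without G144 tumor 8, G174 tumor 6 or G184 tumor 9, and 5 without the tumors with muscle genes. Of 20 fibroblast genes 7 were higher, among them Dcn, the proteoglycan decorin, at 163, 188, 116 and 211 CPM against 59.5, 68.0, 32.4 and 47.6 CPM, and Fbln2 was lower. The 7 were 4 without G144 tumor 6 or either tumor of G164, and 2 without the tumors with muscle genes. Of 20 collagens 2 were higher and Col9a1 lower, under the shares of all genes (13.1% and 12%). There were 0 higher without G144 tumor 6, 9 higher without G174 tumor 1, and 0 in either direction without both tumors with muscle genes. Of 19 genes of the epithelial to mesenchymal transition 5 were higher, the regulators Zeb1, Zeb2, Snai2, Twist1 and Prrx1, and Cldn4 was lower. The list as a whole showed no common direction, with 10 positive and 9 negative log2 differences and a median of 0.05. Leaving out 1 tumor gave 3 to 6 higher, and leaving out both tumors with muscle genes gave 3 higher and 1 lower. Zeb2 was at 64.7, 65.4, 72.7 and 73.7 CPM against 27.2, 38.1, 31.0 and 27.9 CPM, whereas Cdh1 and Vim did not pass (-0.29 and 0.66). Leukocytes and fibroblasts express Zeb2 too, and their marker lists were higher in the same tumors, and the part of these cells was not tested. Of 18 endothelial genes 6 were higher, a count that was 1 without G144 tumor 6, G164 tumor 6 or G184 tumor 9, 2 without G164 tumor 3, 3 without G184 tumor 6 and 2 without both tumors with muscle genes. Erythrocyte genes did not pass.

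Of 19 circadian clock genes 9 were higher and none lower, beside 13.1% and 12% of all genes. The repressor genes Per3 and Nr1d1 and the output gene Dbp were among them. Per3 was at 64.0, 66.6, 58.5 and 65.8 CPM against 35.3, 37.2, 40.6 and 36.0 CPM, with differences of 0.77 and 0.78 in the pairs. Dbp was at 22.9, 26.9, 18.4 and 20.7 CPM against 10.2, 17.1, 11.2 and 7.78 CPM, and Arntl, in opposite phase, did not pass (0.25). The count was 2 without G164 tumor 6, 4 without G144 tumor 6 or G184 tumor 9, 5 without G164 tumor 3, and 3 without the tumors with muscle genes. The hour of death of each mouse was not used here, and its part was not tested. Of 19 imprinted genes 6 were lower (12% of all genes) and 3 higher, the latter near the share of all genes (13.1%). The list median was 0.02. Sgce and Peg10, neighbours expressed from the paternal copy, were among the lower ones (log2 differences -1.89 and -1.71). Leaving out 1 tumor gave 2 (without G164 tumor 6) to 5 lower and 1 to 4 higher, and without both tumors with muscle genes the balance turned, with 1 lower and 3 higher.

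The remaining lists other than the WAVE list held few calls, and these changed with the tumors used. Of all genes, 13.1% were higher and 12% lower. Without both tumors with muscle genes the Wnt list had 0 higher and 1 lower, the stress list 1 and 1, the immediate early list 1 and 0, the WAVE list 4 and 0, the hormone target list 0 and 2, and the mitochondrial list 0 and 0. In the Wnt list Wif1, Fzd2 and Lgr4 were lower and Sfrp2, Dkk3 and Wnt6 higher, of 22, close to the shares of all genes. Of 24 TGF-beta and BMP genes, the receptors Tgfbr1 and Tgfbr2 and the mediator Smad3 were higher (log2 0.36 to 0.47), a share close to that of all genes (13.1%). None of the 24 passed without G144 tumor 6 or 8, either tumor of G164, G184 tumor 9, or both tumors with muscle genes. Of 16 stress response genes, Hsph1, a chaperone, was lower, at 52.9 to 56.6 CPM in the older tumors against 92.5 to 117 CPM in the younger, as were Hsp90aa1 and Trib3, and Atf3 was higher. Egr3 and Atf3 were higher among 16 immediate early genes. Of 14 genes in the WAVE list 5 were higher and 1 lower, and 4 to 6 were higher on leaving out 1 tumor. Nckap1l, Cyfip2, Rac2 and Abi3 were higher beside Abi1, and Abi2 was lower (log2 -0.27). Nckap1l, Rac2 and Abi3 are known chiefly from blood cells, whose marker genes were higher in the same tumors, and the part of those cells was not tested. Of 12 hormone targets Stc2 was higher and Areg and Calca lower, and of 10 mitochondrial genes mt-Nd1 and mt-Co1 were lower.

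**Figure D5:**
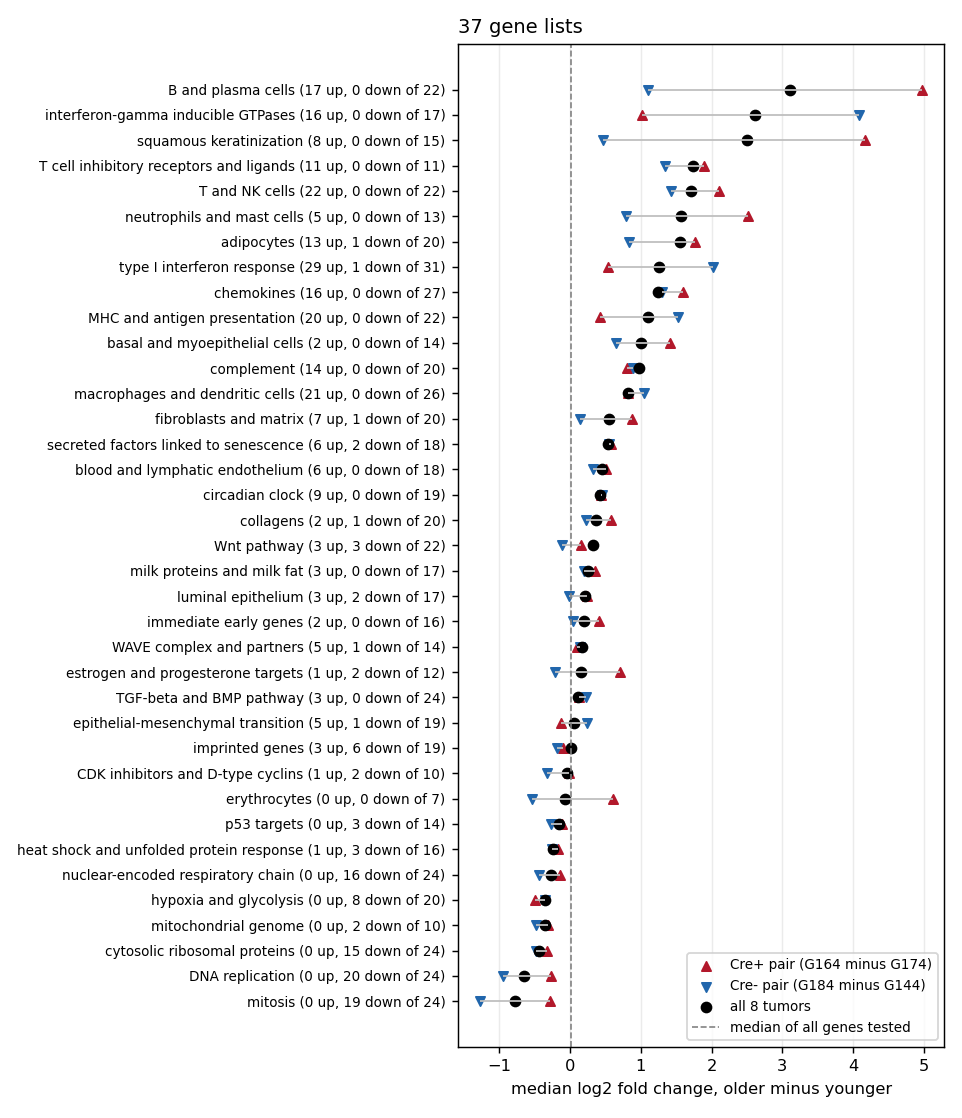
Median log2 difference between older and younger tumors for 37 gene lists (the muscle list is left out), over all 8 tumors (black), in the Cre-positive pair (red) and in the Cre-negative pair (blue); the labels give how many members passed the test over tumors in each direction, and the dashed line is the median of all genes, 0.01. The GTPase list lies at 1.02 and 4.08 in the pairs and the B cell list at 4.97 and 1.10, while the clock list lies at 0.43 and 0.45.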

How the data were processed

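RNA of 8 tumors from 4 mice was sequenced as ribosomal RNA-depleted, stranded, paired-end libraries in 2 runs of 4 lanes, giving 64 lane files. Per the labels and the study's methods, the authors converted reads with bcl2fastq, aligned them with STAR to GRCm38/mm10 and deposited raw counts per gene for each lane and strand setting (versions: not given in the sources used here). A further deposited table of counts summed per mouse equals the unstranded sums of the lane files in all 55381 of its genes. Gene symbols and positions came from GENCODE M21, by gene identifier.

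Reverse-strand counts were summed per tumor, to a median of 66415184 in genes, and per mouse. The test over mice used edgeR 4.0.16 (R 4.3.3): TMM scaling, filterByExpr, quasi-likelihood fit of age class on 2 older and 2 younger mice, Benjamini-Hochberg adjustment and a threshold of 0.05. The test over tumors fitted the 8 tumors with 1 mean per mouse and tested the older minus the younger mice, each Cre pair and the difference of the pairs. Adjusted p-values in the report come from these fits. The study's methods state no test for this comparison, since age was not its question. CPM were scaled by TMM, log2 CPM used a prior count of 2, and log2 differences carry the SE of the fit.

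The comparison, the 38 gene lists and the rule for named genes were chosen with earlier results of these data known. Named were the 10 protein-coding genes with the largest rise and the 10 with the largest fall over mice, where classes did not overlap and the 8 tumors averaged 5 CPM or more, filled from the test over tumors where too few passed. From each list up to 4 passing members with the largest difference were named, or the most abundant member, besides Abi1. Members named outside the rule, and the 13 genes with wide gaps, were chosen after their values were seen.

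On simulated counts the test over mice called 43 of 100 genes changed 2-fold and 83 of 100 changed 4-fold, with 12 unchanged genes called, over 23281 genes. The test over tumors called 59 and 89 of 100, with 6 unchanged genes called, over 22187 genes. The simulated tumors held no difference between mice of 1 age, so the 6 do not give the error rate of that test for age. Alternatives were DESeq2 1.42.0, limma 3.58.1, other scaling, no filter, unstranded counts, single runs, a fold minimum, and left-out tumors and mice. Promoter windows came from RefSeq (GRCm38.p6). No comparison columns of the authors were used. The ages came from the study's histology table, since the labels used here give none. Values of some single list members are not reported here.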

Additional observations from a re-analysis of the deposited data

Results flagged for a closer look

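In a group of 4 tumors a value was marked when its gap to the nearest of the others was a very large part of the range of the group. Of 118 groups 10 were marked, and chance marks about 1 in 20, or 5.9 groups. The skeletal muscle genes, summed, were at 418 CPM in G164 tumor 3 among the older tumors and at 339 CPM in G144 tumor 8 among the younger, far above the other tumors of each class. G144 tumor 8 was also the highest younger tumor for the endothelial list (385 CPM). G174 tumor 1 was the lowest younger tumor for the basal list (1005 CPM), the highest for the antigen presentation list (6814 CPM) and the highest for Mtmr9 (49.4 CPM). Among the older tumors, G164 tumor 6 was the highest for the neutrophil and mast cell list (91.8 CPM), and G184 tumor 9 the lowest for the mitosis list (675 CPM). G164 tumor 3 was the lowest for Dock2 (46.9 CPM) and the highest for Bpifb1 (3.96 CPM).

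Of the 134 genes named by the rule, 3 had an age difference that differed between the Cre-positive and the Cre-negative pair by the test over tumors. The log2 difference of the Cre-positive pair minus that of the Cre-negative pair was -2.49 for Cd274, -4.04 for Gbp4 and 3.10 for Abi1, the deleted gene, with adjusted p of 0.0403, 0.0232 and 0.00495 by edgeR's quasi-likelihood test. Ighm and Ifi44l, named outside the rule, differed too (adjusted p of 0.0127 and 0.00474). Each pair sets 1 mouse against 1 other, so a difference of the pairs and the individual mice cannot be told apart.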

How the results depend on the processing

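The number of calls over mice (38) was 18 with DESeq2 size factors, 170 with library size only (146 higher, 24 lower), 3102 with no filter, 19 with unstranded counts, 90 and 227 with the first and second run alone, 4331 by DESeq2, 10 with a fold change of at least 1.5, 4 with Cre and 6 with the floxed genotype as a covariate, and 3869 by limma with the mouse as a random block. It ran from 0 to 1509 on leaving out 1 tumor or mouse, and was 2270 without both tumors with muscle genes, an alternative chosen after seeing the data. Over tumors (5579) it was 932 with a fold change of at least 1.5, 2079 to 4817 without 1 tumor and 1450 without those 2 tumors. With library size only, 3240 of 5135 calls were higher, against 2907 of 5579. The Cre-positive pair (1576) gave 3130 by DESeq2, 181 to 1321 without 1 tumor and 105 without the 2 tumors, the Cre-negative pair (2787) gave 4484, 205 to 3164 and 91, and the difference of the pairs (58) gave 561, 18 to 68 and 3. DESeq2 gave 25 calls for Cre and 78 for the floxed genotype, where edgeR's quasi-likelihood test gave 0 each. The causes were not tested. On leaving out tumors, signs turned for Myh4 (-6.85 to 7.59, with -0.17 without the 2 tumors), Hbb-bs (-0.13 to 0.36) and the medians of the muscle (-2.19 to 2.83), erythrocyte (-0.20 to 0.21) and hormone target lists (-0.031 to 0.23). Named genes kept direction and side of the threshold in 1211 of their alternative values, with 140 newly past it, 104 no longer past it and 5 turned. No paired analysis was possible because the mice compared share fewer than 2 tumor numbers and the numbers name separate tumors. Single runs, with less depth, also moved the calls over mice, and the spread between mice of 1 age rests on 2 mice per class.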
